A study of Mus musculus with 24 samples.

Results

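The receptors for glutamate, GABA and glycine carry most fast signals between neurons of the cerebellum, and 33 of their subunit genes were followed here in the cerebella of 24 mice aged 6 weeks. The 33 genes were taken by symbol from a list of receptor subunits and matched to the gene identifiers of the count files through the GENCODE annotation. They are 33 of 54232 genes listed in each file and 33 of 22502 genes that passed the filter on low counts, which all 33 passed. By receptor class they comprise 4 AMPA, 5 kainate and 6 NMDA subunits, 1 delta subunit (Grid1), 5 metabotropic glutamate receptors, 8 GABA-A, 2 GABA-B and 2 glycine receptor subunits. The list leaves out some subunits of high abundance in cerebellum, such as Gabra6 and Grin2c, which were read among the other genes of these synapses.

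Spinocerebellar ataxia type 1 (SCA1) is caused by an expanded polyglutamine tract in the protein ataxin 1, and the study asked whether removing the phosphorylation site S776 of ataxin 1, by a serine-to-alanine change made with CRISPR/Cas9 at the endogenous mouse gene, alters the disease. WT mice carried Atxn1_2Q/2Q (8 mice), SCA1 mice Atxn1_154Q/2Q (4 mice), SCA1 S776A mice Atxn1_154Q[S776A]/2Q (4 mice), S776A double mice Atxn1_154Q[S776A]/2Q[S776A] (4 mice) and WT S776A homozygous mice Atxn1_2Q[S776A]/2Q[S776A] (4 mice), where the number before Q is the length of the glutamine tract of an allele. All mice were of the C57BL/6J background, and because the alleles sit at the endogenous locus, every cell that uses Atxn1 carries them. The founder line of the sequenced mice is not given in the sources used here. RNA came from whole cerebellum, so each value is an average over all cell types, and fewer cells of a type cannot be told apart from less RNA per cell.

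Ionotropic glutamate receptors are channels built of 4 subunits. AMPA receptors carry the fast current, kainate receptors modulate it, and NMDA receptors pass calcium when glutamate binding and depolarisation coincide. Metabotropic glutamate receptors act through G proteins, as do GABA-B receptors, which work only as a pair of Gabbr1 and Gabbr2. GABA-A and glycine receptors are chloride channels that silence the neuron. In the cerebellar cortex, parallel fibres of granule cells and climbing fibres drive Purkinje cells through AMPA receptors, Grm4 damps release from parallel fibre terminals, and molecular layer interneurons inhibit Purkinje cells through GABA-A receptors.

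The libraries held 62163600 to 88430180 fragments on genes. The share of fragments outside annotated genes split the libraries into 2 sets, 9.52 to 12.0% in 16 libraries and 5.23 to 6.31% in 8 libraries, and these sets are called batch 1 and batch 2 below. Batch 1 held 4 WT mice with all SCA1, SCA1 S776A and S776A double mice, and batch 2 held 4 WT mice with all WT S776A homozygous mice. Of the 33 subunits, 12 differed between the batches at an adjusted p under 0.05 (36.4%, against 45.0% of all genes tested), among them Gria2 by -0.80, Grin3b by -0.94 and Glrb by 0.35 on the log2 scale in batch 2 against batch 1. A batch term therefore compared every genotype with the WT mice of the same inferred batch. The quasi-likelihood test of edgeR was used, p-values were adjusted by the Benjamini-Hochberg method across all 22502 genes, and a gene was called at an adjusted p under 0.05. Granule cell markers summed to 5495 to 5719 CPM (the usual scaled count, a gene's share of the fragments of its library) and Purkinje cell markers to 7722 to 8846 CPM in the WT mice of batch 1, in keeping with the labelled tissue. WT S776A homozygous mouse 4 stood apart from the other mice of its group, and values without it are given wherever it bore on a result.

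In WT cerebellum the 33 subunits spanned a wide range of levels per length of exon, given as RPKM, the CPM value divided by the exon length in kilobases. Grm4, the presynaptic metabotropic receptor of parallel fibres, had the highest level at 113 ± 9.08 RPKM (SD, n = 4 WT mice of batch 1). Gabbr1, which binds GABA in the GABA-B pair, followed at 107 ± 3.96 RPKM, and Gria1, an AMPA subunit, at 106 ± 7.80 RPKM. These 3 levels differed by less than the spread between mice. The next were Gria4 at 85.2 ± 3.65, Glrb at 54.6 ± 1.499, Gabbr2 at 48.4 ± 4.34, Gria2 at 33.3 ± 0.247, Gabrb2 at 29.8 ± 2.16 and Grin1 at 28.2 ± 2.19 RPKM. Gabrb2 and Grin1, neighbours in that order, again lay within their spread. The other 20 subunits between these and the lowest ran from 0.628 RPKM (Grm8) to 20.8 RPKM (Grik5). At the low end stood Grin3b at 0.594 ± 0.0658, Glra1 at 0.374 ± 0.395, Gabra5 at 0.212 ± 0.105 and Gabrg3 at 0.181 ± 0.0184 RPKM. Gabra5 had as few as 19 fragments in a WT library and Glra1 as few as 26, so values of these genes carry more counting error than those of the other subunits.

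**Figure D1:**
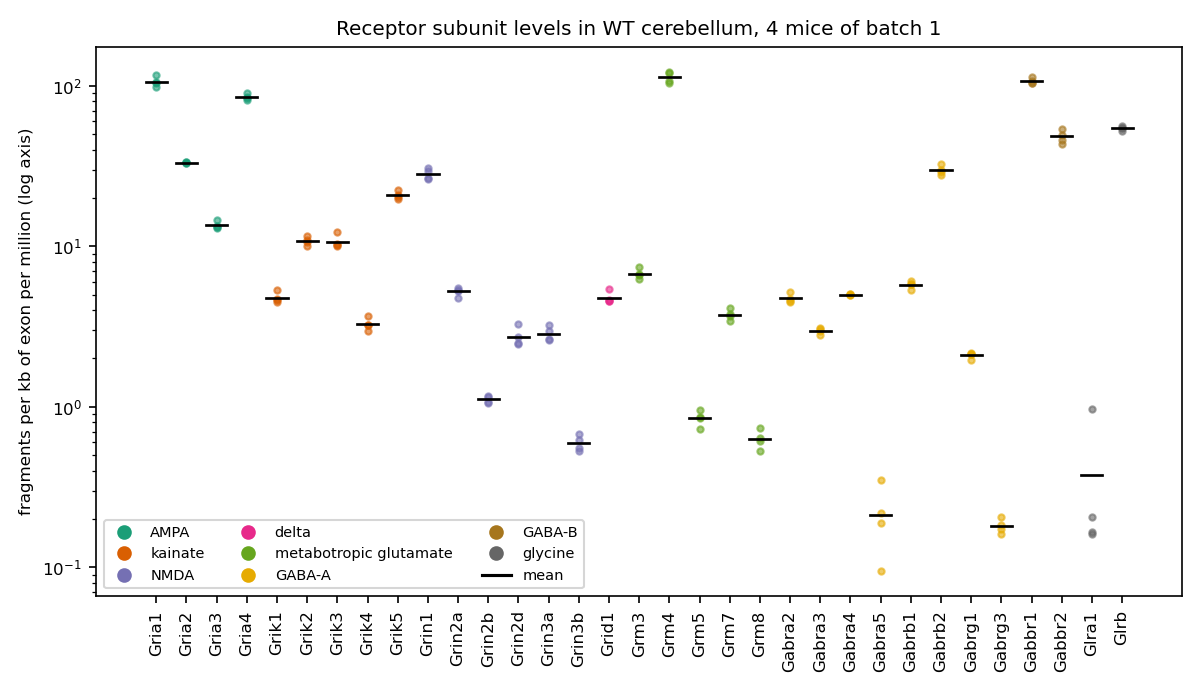
Level of each of the 33 receptor subunit genes in WT cerebellum, in RPKM on a log axis, grouped and coloured by receptor class. Points are the 4 WT mice of batch 1 and bars their means. Grm4, Gabbr1 and Gria1 lead at 113, 107 and 106, and Gabra5 and Gabrg3 close the range at 0.212 and 0.181.

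SCA1 mice were compared with WT mice to ask which subunits differ with the expanded allele. No subunit was called (0 of 33, against 0.387% of all genes tested, and 0 against 0.173% at an adjusted p under 0.01 with an absolute log2 fold change over 0.5), and the lowest adjusted p was 0.131, for Gria3. DESeq2 with the same terms called 1, Gria3 (adjusted p = 0.0453), and DESeq2 on counts corrected with ComBat-seq called 5 (Grm4, Gria3, Gabbr1, Grik2 and Gabra5). At an unadjusted p under 0.05 there were 11 of 33 (33.3%, against 8.25% of all genes tested), of which 9 were lower (27.3%, against 4.32%) and 2 were higher (against 3.93%). The 9 lower subunits were Gria3 and Gria1 (AMPA), Grik1 and Grik4 (kainate), Grin3b (NMDA), Grm4 and Grm3 (metabotropic) and Gabbr1 and Gabbr2 (GABA-B), and the 2 higher ones were Grik2 (kainate) and Gabra5 (GABA-A). In 9 subunits all 4 SCA1 mice lay below all 4 WT mice of batch 1 (against 4.99% of all genes) and in 2, Grik2 and Gria2, they lay above (against 3.77%). The log2 fold change was below 0 in 22 of 33 subunits (66.7%, against 49.5% of all genes), with a median of -0.08 over the members and 0.00 over all genes. In SCA1 S776A mice it was also below 0 in 22 of 33 (66.7%, against 48.8%). S776A double mice gave 21 of 33 (63.6%, against 50.2%), and these genotypes share the WT mice of batch 1 with SCA1 mice. WT S776A homozygous mice gave 18 of 33 (54.5%, against 46.7%). The count of 11 depended on single mice, since without WT mouse 1 it came to 5 (4 lower and 1 higher, against 6.44% of all genes) and without SCA1 mouse 4 to 7 (5 lower and 2 higher, against 6.62%). Without WT S776A homozygous mouse 4, which enters this comparison only through the shared estimate of the spread, 2 subunits were called, Grm4 at an adjusted p of 0.0136 and Gabbr1 at 0.0365. With the mice of batch 1 alone in the fit, 3 subunits were called, Grm4 at an adjusted p of 0.00301, Gabbr2 at 0.00799 and Gabbr1 at 0.0271, among 334 genes called in all, against 87 with all 24 mice. The share of all genes called under DESeq2, after ComBat-seq and without WT S776A homozygous mouse 4 is not given here. Those counts therefore do not set the subunits apart from other genes.

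**Figure D2:**
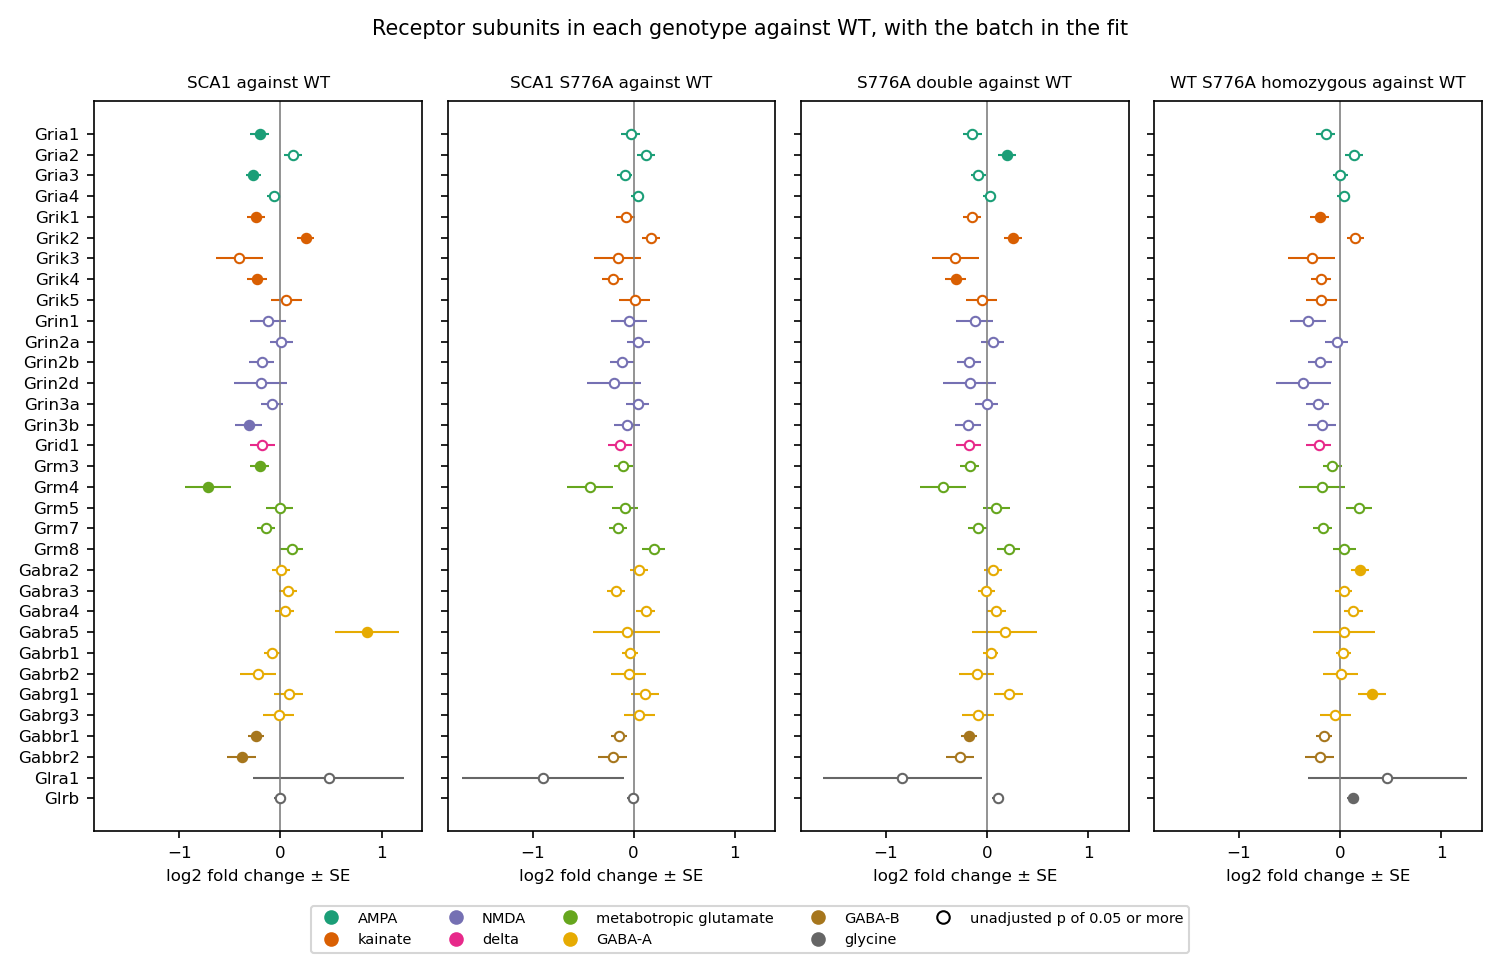
Log2 fold change of each of the 33 receptor subunits against WT in the 4 genotypes, 1 panel per genotype, with the standard error as bars, colours for the receptor class and open circles for an unadjusted p of 0.05 or more. In SCA1 mice Grm4 (-0.72), Gabbr2 (-0.38), Gria3 (-0.27) and Gabbr1 (-0.24) lie below 0 and Grik2 (0.25) and Gabra5 (0.85) above it.

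Markers of Purkinje cells moved with this comparison. Of 8 Purkinje cell markers, 6 were lower in SCA1 mice at an unadjusted p under 0.05 (against 4.32% of all genes) and 0 were higher (against 3.93%). None of these markers was called, and their sum was 6017 to 6635 CPM in SCA1 mice against 7722 to 8846 CPM in WT mice of batch 1. Interneuron markers summed to 1101 to 1266 CPM in SCA1 mice and 1288 to 1459 CPM in WT mice, with 2 of 8 lower (against 4.32%) and 1 of 8 higher (against 3.93%). Of these sums, Gad1 alone gave 496 to 544 CPM in SCA1 mice and 572 to 651 CPM in WT mice, and which cells it came from was not tested. Granule cell markers overlapped, at 4807 to 5759 CPM in SCA1 mice and 5495 to 5719 CPM in WT mice. Unipolar brush cell markers summed to 732 to 771 CPM in SCA1 mice and 611 to 669 CPM in WT mice. Choroid plexus markers, from tissue that can be dissected along with the cerebellum, ranged from 34.2 to 1750 CPM in WT mice and from 910 to 5147 CPM in SCA1 mice. The part of these shifts in the subunit values was not tested.

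Of the 5 metabotropic glutamate receptors, 4 were lower in SCA1 mice by their fitted value, and Grm4 (ENSMUSG00000063239, chr17:27422387-27521403) had the largest fitted decrease of all 33 subunits. Grm4 stood at 715, 730.0, 637 and 622 CPM in the WT mice of batch 1 and at 458, 375, 415 and 396 CPM in the SCA1 mice. The highest SCA1 mouse lay below the lowest WT mouse, and the fit gave log2 fold change -0.72, SE 0.23, or 0.609 of the WT level (adjusted p = 0.276). Grm4 was at 519.6, 502, 576 and 408 CPM in SCA1 S776A mice and at 399, 492, 509 and 606 CPM in S776A double mice. All 12 mice with an expanded allele therefore lay below the 4 WT mice of their batch. In batch 2 Grm4 was at 503, 652, 653 and 652 CPM in WT mice and at 748, 722, 455 and 245 CPM in WT S776A homozygous mice. There the groups overlapped, with WT S776A homozygous mice 1 and 2 above every WT mouse and mice 3 and 4 below. The adjusted p of Grm4 in SCA1 mice ran from 0.0136 to 0.541 when each mouse was left out in turn and from 0.00301 to 0.516 over the other alternatives, while its log2 fold change stayed between -0.78 and -0.65.

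Grm3 (ENSMUSG00000003974, chr5:9485541-9725170), a receptor of neurons and glia coupled to inhibition of cyclic AMP, was at 22.7, 20.1, 20.5 and 19.0 CPM in WT and 17.9, 20.5, 18.1 and 15.0 CPM in SCA1 mice, which overlapped because of SCA1 mouse 2 (log2 fold change -0.20, SE 0.09, adjusted p = 0.565). It was at 20.0, 17.8, 20.9 and 17.9 CPM in SCA1 S776A mice and 21.2, 16.7, 16.6 and 18.7 CPM in S776A double mice. In batch 2 Grm3 was at 23.0, 24.2, 23.3 and 21.4 CPM in WT mice and 22.5, 19.8, 24.3 and 20.6 CPM in WT S776A homozygous mice, again with overlap. Grm7 and Grm8, presynaptic receptors related to Grm4, came to -0.14 and 0.11 in SCA1 mice on the log2 scale, and Grm5, which couples to calcium release, to -0.01. Grm4 made up most of the class: the 5 genes summed to 177 ± 10.3 RPKM in WT and 123 ± 7.03 RPKM in SCA1 mice (SD, n = 4 each), and Grm4 took 63.8 ± 1.81% and 55.8 ± 2.63% of it.

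Both GABA-B subunits were lower in all 4 SCA1 mice. Gabbr1 (ENSMUSG00000024462, chr17:37045966-37075067) was at 876, 828, 814 and 808 CPM in WT mice of batch 1 and at 715, 722, 715 and 662 CPM in SCA1 mice (log2 fold change -0.24, SE 0.08, adjusted p = 0.277). Gabbr1 was at 786, 715, 724 and 787 CPM in SCA1 S776A mice and at 791, 718, 734 and 707 CPM in S776A double mice, so every mouse with an expanded allele lay below the WT range. In batch 2 it was at 885, 949, 904 and 883 CPM in WT mice and at 894, 931, 773 and 647 CPM in WT S776A homozygous mice, where mice 3 and 4 were below and mice 1 and 2 within the WT range. Gabbr2 (ENSMUSG00000039809, chr4:46662305-46991873), the subunit that couples to the G protein, was at 359, 333, 292 and 309 CPM in WT and 258, 262, 241 and 232 CPM in SCA1 mice (log2 fold change -0.38, SE 0.14, adjusted p = 0.417). Its values were 286, 269, 286 and 279 CPM in SCA1 S776A mice, all below the WT range, and 296, 233, 253 and 294 CPM in S776A double mice, which reached into it. In batch 2 Gabbr2 was at 309, 338, 294 and 325 CPM in WT and 363, 332, 225 and 178 CPM in WT S776A homozygous mice, with mouse 4 lowest. The summed level of the pair was 155 ± 8.10 RPKM in WT and 128 ± 5.42 RPKM in SCA1 mice, and the ratio of Gabbr1 to Gabbr2 per length was 2.22 ± 0.132 and 2.44 ± 0.0842, with overlap between mice. Adjusted p values for Gabbr1 in SCA1 mice were between 0.0365 and 0.639 with single mice left out and between 0.0271 and 0.364 in the other alternatives.

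**Figure D3:**
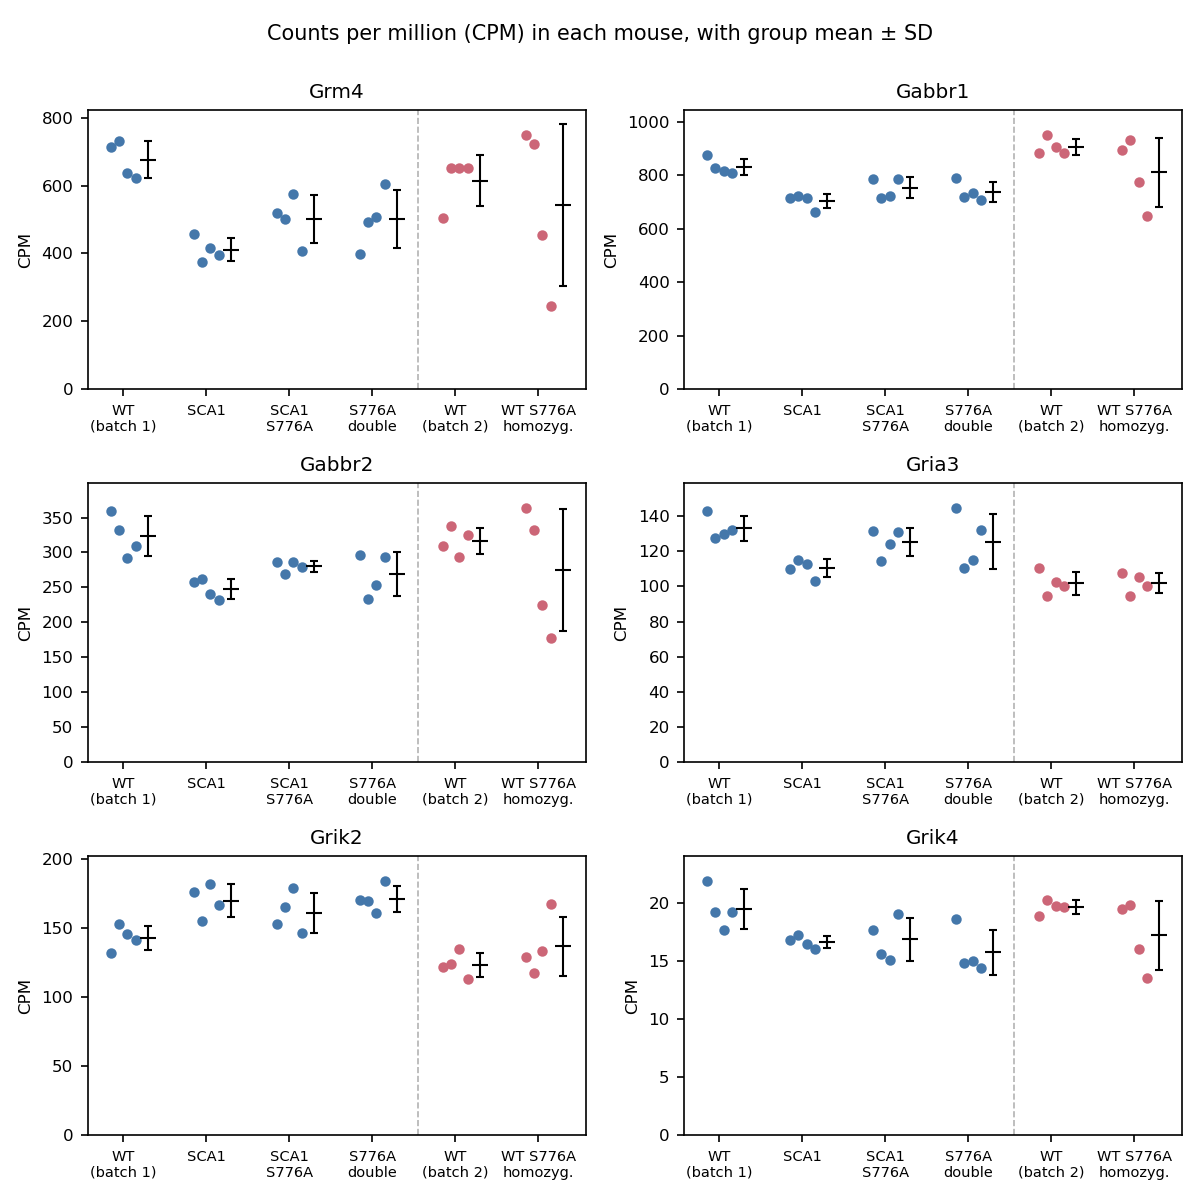
CPM values in each of the 24 mice for 6 receptor subunits, 1 panel per gene, with the group mean and SD as bars and a dashed line between batch 1 and batch 2. Grm4 and Gabbr1 are lower in every mouse with an expanded allele than in the 4 WT mice of batch 1, and WT S776A homozygous mouse 4 has the lowest Grm4 value of all mice at 245 CPM.

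Promoter sequence is shown for 3 subunits whose SCA1 groups did not overlap WT, Gabbr1 and Grik4 among the lower and Grik2 among the higher, as context for genes that differed in opposite directions. The sequences are from RefSeq (build GRCm38.p6), end just before the annotated gene, and are printed 5′ to 3′ on the strand of the gene, with capitals for the GC box, the letters GGGCGG on either strand. Gabbr1 is taken from chr17:37045716-37045965 on the plus strand, Grik4 from chr9:42944494-42944621 on the minus strand and Grik2 from chr10:49788767-49789004 on the minus strand.
Gabbr1: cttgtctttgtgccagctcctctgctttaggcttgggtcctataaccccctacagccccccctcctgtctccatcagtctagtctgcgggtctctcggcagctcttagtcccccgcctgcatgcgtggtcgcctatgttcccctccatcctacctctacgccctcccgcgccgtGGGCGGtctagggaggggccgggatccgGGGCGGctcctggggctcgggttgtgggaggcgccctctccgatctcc
Grik4: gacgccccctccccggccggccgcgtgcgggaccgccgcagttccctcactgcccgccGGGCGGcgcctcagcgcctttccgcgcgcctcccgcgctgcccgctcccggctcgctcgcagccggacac
Grik2: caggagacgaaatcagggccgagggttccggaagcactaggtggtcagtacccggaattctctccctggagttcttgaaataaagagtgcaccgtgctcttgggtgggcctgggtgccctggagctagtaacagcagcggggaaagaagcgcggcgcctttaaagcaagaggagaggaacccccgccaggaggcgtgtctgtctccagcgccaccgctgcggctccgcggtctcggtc
These stretches hold 2 GC boxes in the 250 bases of Gabbr1, 1 in the 128 bases of Grik4 and 0 in the 238 bases of Grik2. Other subunits whose SCA1 mice lay apart from WT had 2 (Gabbr2), 6 (Grik3) and 0 (Grin3b) among the lower and 0 (Gria2) among the higher, within 250 bases. A relation of GC boxes to direction was not tested. RefSeq listed 30 promoters for 23 of the 33 subunits. Within 250 bases before the start, 14 of these 30 (46.67%) held a GC box, against 32.74% of 32851 promoters, and their median GC content was 60.8% against 52.4%. The letters TGAATGAA, TGAATGGA, TCAATGAA and TCAATGGA, the sites read by Capicua (the DNA-binding partner of ataxin 1), were searched on both strands and occurred in 0 of the 30 promoters and in 3.19% of all. Gria1, Gria3, Grik1, Grin2a, Grin2b, Grin3a, Grid1, Grm4, Grm5 and Glra1 were not matched.

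Kainate receptors held subunits on both sides of 0. Grik2 (ENSMUSG00000056073, chr10:49094833-49788766), which forms the channel, was at 132, 153, 146 and 142 CPM in WT mice of batch 1 and 177, 155, 182 and 167 CPM in SCA1 mice (log2 fold change 0.25, SE 0.09, adjusted p = 0.331). All 4 SCA1 mice were above all 4 WT mice. Grik2 was at 153, 165, 179 and 147 CPM in SCA1 S776A mice, which overlapped WT, and at 171, 169.7, 161 and 184 CPM in S776A double mice, which did not. Within batch 2 the level was 122, 124, 135 and 114 CPM in WT and 129, 118, 133 and 168 CPM in WT S776A homozygous mice, with mouse 4 alone above the WT range.

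Grik4 (ENSMUSG00000032017, chr9:42518135-42944493), a kainate subunit of high affinity, was at 21.8, 19.2, 17.6 and 19.2 CPM in WT and 16.8, 17.2, 16.4 and 16.0 CPM in SCA1 mice (log2 fold change -0.23, SE 0.10, adjusted p = 0.55). The groups did not overlap, but the gap between SCA1 mouse 2 and WT mouse 3 was small. Grik4 was at 17.7, 15.6, 15.1 and 19.1 CPM in SCA1 S776A and 18.6, 14.8, 15.0 and 14.4 CPM in S776A double mice, both overlapping WT. In batch 2 it was at 18.8, 20.2, 19.7 and 19.7 CPM in WT and 19.4, 19.8, 16.0 and 13.5 CPM in WT S776A homozygous mice, where mice 3 and 4 were low. Per length, the ratio of Grik2 to Grik4 was 3.34 ± 0.443 in WT mice (2.73 to 3.73) and 4.63 ± 0.401 in SCA1 mice (4.05 to 4.99), a description made from genes already seen to differ. The ratio was 4.38 ± 0.852 in SCA1 S776A and 4.96 ± 0.677 in S776A double mice.

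Grik1 (ENSMUSG00000022935, chr16:87895900-88290265), another channel-forming kainate subunit, was at 36.0, 30.2, 31.1 and 31.5 CPM in WT and 27.4, 28.5, 28.9 and 24.4 CPM in SCA1 mice, without overlap (log2 fold change -0.24, SE 0.09, adjusted p = 0.421). It was at 30.9, 28.4, 30.2 and 32.4 CPM in SCA1 S776A and 31.7, 26.4, 27.7 and 30.4 CPM in S776A double mice, both overlapping WT. In batch 2 all 4 WT S776A homozygous mice, at 26.7, 26.8, 24.1 and 18.2 CPM, lay below the WT mice at 28.0, 28.3, 27.1 and 26.9 CPM, by little in mice 1 and 2 and by most in mouse 4. Grik5 (ENSMUSG00000003378, chr7:25009849-25072346), the kainate subunit of highest level in WT mice, did not separate the groups, at 108, 115, 101 and 104 CPM in WT and 117, 110.1, 106 and 113 CPM in SCA1 mice. It was at 101, 108, 107 and 99.1 CPM in S776A double mice and at 114, 109.8, 98.6 and 110.1 CPM in SCA1 S776A mice. In batch 2 Grik5 was at 77.1, 81.7, 79.5 and 92.8 CPM in WT and 88.2, 99.6, 60.2 and 43.2 CPM in WT S776A homozygous mice, with mice 3 and 4 below the WT range and mouse 2 above it. Grik3 was lower in every SCA1 than in every WT mouse, but its log2 fold change of -0.41 had an SE of 0.23. The summed kainate level was 50.3 ± 1.99 RPKM in WT and 49.4 ± 1.66 RPKM in SCA1 mice, so the class total differed by less than the spread, with Grik2 at 21.5 ± 1.67% of the total in WT and 26.0 ± 1.75% in SCA1 mice.

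AMPA receptors were lower for Gria3 and Gria1 and not for Gria2 or Gria4. Gria3 (ENSMUSG00000001986, chrX:41400854-41678601) had the lowest p of all 33 subunits, at 143, 127, 129.8 and 132 CPM in WT mice and 109.9, 115, 113 and 103 CPM in SCA1 mice (log2 fold change -0.27, SE 0.07, adjusted p = 0.131). All SCA1 mice were below all WT mice. Gria3 was at 131, 115, 124 and 131 CPM in SCA1 S776A and 144, 110.3, 115 and 132 CPM in S776A double mice, which both reached into the WT range. Within batch 2 the level was 110.3, 94.5, 103 and 100.1 CPM in WT and 107, 94.8, 106 and 100.2 CPM in WT S776A homozygous mice, with log2 fold change 0.00. Leaving out single mice gave adjusted p values of 0.0634 to 0.430 for Gria3 in SCA1 mice, and the other alternatives 0.00574 to 0.621.

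Gria1 (ENSMUSG00000020524, chr11:57011387-57330244), the AMPA subunit of highest level here, was at 709, 633, 635 and 596 CPM in WT and 576, 596, 576 and 484 CPM in SCA1 mice (log2 fold change -0.21, SE 0.09, adjusted p = 0.569). SCA1 mouse 4 was lowest, and SCA1 mouse 2 lay just under the lowest WT mouse. Gria1 was at 671, 558, 591 and 698 CPM in SCA1 S776A and 691, 513, 535 and 591 CPM in S776A double mice, both overlapping WT. In batch 2 it was at 552, 553, 523 and 522 CPM in WT and 510.4, 546, 465 and 423 CPM in WT S776A homozygous mice, again with mouse 4 lowest. Gria2, the subunit that keeps calcium out of the AMPA channel, was at 512 to 521 CPM in WT mice of batch 1 and above that range in all 12 mice with an expanded allele, at 527 to 602 CPM in SCA1 mice, 544 to 666 CPM in S776A double mice and 552 to 572 CPM in SCA1 S776A mice. The fitted difference was small against its error in SCA1 mice (log2 fold change 0.12, SE 0.09), and its level in batch 2 WT mice, 255 to 334 CPM, was lower than in batch 1 by more than any genotype difference. Gria2 made up 14.0 ± 0.644% of AMPA transcripts per length in WT mice, 16.4 ± 1.20% in SCA1 mice, 16.3 ± 0.347% in S776A double mice and 15.1 ± 0.858% in SCA1 S776A mice, while the class total was 238 ± 12.1 RPKM in WT and 221 ± 13.8 RPKM in SCA1 mice.

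Of the 6 NMDA subunits 5 had a log2 fold change below 0 in SCA1 mice, with a median of -0.16, and the delta subunit was at -0.18. Grin3b (ENSMUSG00000035745, chr10:79970715-79977190), an NMDA subunit that lowers calcium entry, was the only one of the 6 with an unadjusted p under 0.05, at 2.21, 1.75, 2.06 and 1.81 CPM in WT and 1.67, 1.41, 1.71 and 1.51 CPM in SCA1 mice (log2 fold change -0.31, SE 0.13, adjusted p = 0.504). All SCA1 mice were below the WT range. It was at 1.91, 1.73, 2.07 and 1.76 CPM in SCA1 S776A, 1.58, 1.73, 1.51 and 2.06 CPM in S776A double, 0.991, 1.05, 0.984 and 1.06 CPM in WT mice of batch 2 and 1.08, 0.970, 0.740 and 0.802 CPM in WT S776A homozygous mice. Of the exon bases of Grin3b, 32.1% overlap Tmem259 on the opposite strand, and the counts do not use strand. Fragments that overlap both genes are set aside as ambiguous and counted for neither. The RPKM of Grin3b, which divides by all exon bases, may therefore be too low.

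Grin1 (ENSMUSG00000026959, chr2:25291181-25319187), the subunit that every NMDA receptor needs, was at 299, 284, 258 and 255 CPM in WT and 269, 256, 247 and 232 CPM in SCA1 mice, with overlap (log2 fold change -0.13, SE 0.18). It was at 277, 262, 272 and 248 CPM in SCA1 S776A and 262, 241, 230.2 and 273 CPM in S776A double mice, both overlapping WT. In batch 2 Grin1 was at 179, 219, 216 and 203 CPM in WT and 198, 232, 143 and 84.2 CPM in WT S776A homozygous mice, where mouse 4 was below every WT mouse of either batch and mouse 3 also lay below the range. For Grin2a, Grin2b, Grin2d and Grin3a the fitted SCA1 differences were 0.01, -0.19, -0.20 and -0.08 on the log2 scale, each within 2 SE of 0. Grid1 (ENSMUSG00000041078, chr14:34820108-35583379), an orphan glutamate receptor that organises synapses, was at 32.5, 27.3, 27.1 and 27.5 CPM in WT and 26.7, 27.2, 24.0 and 23.0 CPM in SCA1 mice, with overlap (log2 fold change -0.18, SE 0.12). Grid1 stood at 29.7, 22.1, 25.2 and 27.2 CPM in SCA1 S776A, 28.6, 24.4, 23.8 and 24.1 CPM in S776A double, 25.6, 27.1, 24.9 and 28.2 CPM in WT mice of batch 2 and 26.0, 28.0, 21.4 and 15.8 CPM in WT S776A homozygous mice.

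GABA-A subunits gave 1 of 8 with an unadjusted p under 0.05 in SCA1 mice, Gabra5 (ENSMUSG00000055078, chr7:57407672-57510059), the alpha subunit of extrasynaptic receptors in forebrain. It was scarce, at 0.282, 0.643, 1.04 and 0.564 CPM in WT and 0.891, 1.66, 1.14 and 0.856 CPM in SCA1 mice, where the groups overlapped through WT mouse 3 (log2 fold change 0.85, SE 0.31, adjusted p = 0.401). Gabra5 was at 0.480, 0.572, 0.555 and 0.788 CPM in SCA1 S776A and 0.974, 0.589, 0.631 and 0.641 CPM in S776A double mice. Within batch 2 the level was 0.816, 0.573, 1.20 and 0.944 CPM in WT and 0.648, 0.655, 0.932 and 1.41 CPM in WT S776A homozygous mice, with overlap. Forebrain markers summed to 7.90 to 8.84 CPM in SCA1 mice and 6.57 to 8.21 CPM in WT mice of batch 1, and their part in the Gabra5 value was not tested.

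Gabrb2 (ENSMUSG00000007653, chr11:42419757-42629028), the GABA-A subunit of highest level among the 8, was at 209, 176, 186 and 189 CPM in WT and 177, 189, 178 and 107 CPM in SCA1 mice, which overlapped except for SCA1 mouse 4 (log2 fold change -0.22, SE 0.18). It was at 194, 169, 216 and 153 CPM in SCA1 S776A and 211, 134, 138 and 225 CPM in S776A double mice, which spread to both sides of the WT range. In batch 2 Gabrb2 was at 225, 198, 195 and 186 CPM in WT and 206, 163, 243 and 195 CPM in WT S776A homozygous mice. Gabra2, Gabra3, Gabra4, Gabrb1, Gabrg1 and Gabrg3 had log2 fold changes between -0.08 and 0.08 in SCA1 mice. Of the glycine receptor subunits, Glrb (ENSMUSG00000028020, chr3:80843599-80913660), the beta subunit that anchors the receptor, was at 262, 245, 255 and 254 CPM in WT and 249, 263, 267 and 235 CPM in SCA1 mice (log2 fold change 0.00, SE 0.06). Glrb was at 265, 234, 262 and 249 CPM in SCA1 S776A mice and at 281, 269, 265 and 279 CPM in S776A double mice, and the latter lay above the WT range in all 4 mice. In batch 2 it was at 337, 319.8, 314 and 321 CPM in WT and 332, 329, 362 and 391 CPM in WT S776A homozygous mice. Glra1, the alpha subunit of brainstem and spinal cord, was low throughout and ranged from 0.386 to 2.33 CPM in WT mice of batch 1. Its fitted log2 fold change against WT was 0.48 in SCA1, -0.89 in SCA1 S776A, -0.83 in S776A double and 0.47 in WT S776A homozygous mice. Against SCA1 mice it came to -1.37 in SCA1 S776A and -1.31 in S776A double mice. None of these differences of Glra1 had an unadjusted p under 0.05.

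The 2 genotypes that carry S776A on the expanded allele were set against the same 4 WT mice as the SCA1 mice, so these comparisons share controls. In SCA1 S776A mice 0 of 33 subunits were called (against 0.0222% of all genes) and 0 had an unadjusted p under 0.05 (against 3.93%). Grm4 (-0.43), Gabbr1 (-0.14), Grm7 (-0.15) and Gabbr2 (-0.21) were nevertheless lower in all 4 SCA1 S776A than in all 4 WT mice, and Gria2 (0.12) higher, on the log2 scale of the fit (5 of 33 apart, against 4.39%). With the mice of batch 1 alone in the fit, the count at an unadjusted p under 0.05 was 8 (6 lower and 2 higher, against 5.84% of all genes). It was 7 without the batch term (against 18.0%), 5 after ComBat-seq (against 7.16%) and 6 without WT S776A homozygous mouse 4 (5 lower and 1 higher, against 5.27%), and with any other mouse left out it was 0 to 3. In S776A double mice 0 of 33 were called (against 0.08%) and 4 had an unadjusted p under 0.05 (against 6.93%), with Grik4 (-0.31, SE 0.10) and Gabbr1 (-0.17, SE 0.08) lower and Grik2 (0.26, SE 0.09) and Gria2 (0.19, SE 0.09) higher. The mice were apart in 6 of 33 subunits (against 7.11%), Gabbr1 and Grm4 below WT and Grik2, Gria2, Glrb and Gabrg1 above it. The count of 4 was 2 without WT mouse 2 (against 4.94% of all genes), 7 without S776A double mouse 1 (against 7.94%) and 8 without WT S776A homozygous mouse 4 (against 10.2%). It was 10 with the mice of batch 1 alone (6 lower and 4 higher, against 12.7%). For the mean of the 3 genotypes with the expanded allele, 0 were called (against 0.204%) and 8 had an unadjusted p under 0.05 (against 7.67%), with Grik4, Gabbr1, Grm4, Gria3, Gabbr2, Grm3 and Grik1 lower and Grik2 higher. In 3 subunits all 12 mice lay outside the WT range of batch 1, Gabbr1 and Grm4 below it and Gria2 above it (against 1.07% of all genes in either direction). The count of 8 was 13 with the mice of batch 1 alone (against 13.0% of all genes) and 14 after ComBat-seq (against 17.2%). Without WT mouse 1 it was 5 (against 5.44%), and without WT S776A homozygous mouse 4 Grm4 was called at an adjusted p of 0.036.

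Set directly against SCA1 mice, the S776A genotypes tell whether a subunit differs with the change itself. In SCA1 S776A against SCA1 mice 0 of 33 subunits were called (against 0.00444% of all genes) and 3 had an unadjusted p under 0.05 (against 4.35%). Gabra5 (-0.92, SE 0.31) and Gabra3 (-0.25, SE 0.09), a GABA-A alpha subunit, were lower in SCA1 S776A mice, and Gria3 (0.18, SE 0.07) was higher. Gabra5 and Gabra3 were lower in every SCA1 S776A than in every SCA1 mouse, and Grin3b and Gabbr2 were higher in every one (4 of 33 apart, against 3.41%). The log2 fold change was below 0 in 9 of 33 subunits (27.3%, against 49.9% of all genes). This comparison shares its SCA1 mice with that of SCA1 against WT, so opposite signs in the 2 are not independent. For Grm4 the difference was 0.29 on the log2 scale (95% interval -0.16 to 0.73), for Gabbr1 0.10 on the log2 scale (95% interval -0.06 to 0.25), for Gabbr2 0.17 on the log2 scale (95% interval -0.10 to 0.45) and for Grik2 -0.08 on the log2 scale (95% interval -0.25 to 0.09), so these intervals hold both no difference and a return to about the WT level for Grm4, Gabbr1 and Gabbr2. Without SCA1 S776A mouse 2, or without WT S776A homozygous mouse 4, the count of 3 was 5 (against 4.28% and 5.43%), and with the mice of batch 1 alone it was 6 (against 6.08%).

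In S776A double against SCA1 mice 0 of 33 were called (against 0.00444%) and 2 had an unadjusted p under 0.05 (against 3.64%), Gabra5 lower (-0.68, SE 0.31) and Gria3 higher (0.19, SE 0.07). No subunit separated the mice of these 2 genotypes (0 of 33, against 2.7%). The log2 fold change was below 0 in 7 of 33 (21.2%, against 49.6% of all genes), again with the SCA1 mice shared. Leaving out S776A double mouse 2, S776A double mouse 3 or SCA1 mouse 4 gave 1 subunit at an unadjusted p under 0.05. Leaving out S776A double mouse 4 gave 0, while the mice of batch 1 alone gave 4 (against 4.71%). S776A double and SCA1 S776A mice differ by the change on the unexpanded allele. Between them 0 of 33 subunits were called (against 0.0%), 0 had an unadjusted p under 0.05 (against 2.96%) and 0 separated the mice (against 2.65%), and the difference was 0.00 on the log2 scale (95% interval -0.44 to 0.44) for Grm4, -0.03 on the log2 scale (95% interval -0.18 to 0.12) for Gabbr1 and 0.09 on the log2 scale (95% interval -0.08 to 0.26) for Grik2. With a single mouse left out, the count at an unadjusted p under 0.05 was 0 to 2. A test of whether the S776A change on the unexpanded allele went with a different shift in mice with and without the expanded allele (the interaction, whose 2 differences come from different batches) called 0 subunits (against 0.0%), with 0 at an unadjusted p under 0.05 (against 2.88%). In the comparisons other than SCA1 against WT, DESeq2 with the batch as a covariate called 0 subunits, and after ComBat-seq it called 1 in S776A double mice (Grik2), 5 in the mean of the 3 genotypes and 0 in the rest. The share of all genes called in these settings is not given here, so the counts do not set the subunits apart.

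In WT S776A homozygous mice, which lack an expanded allele, 0 of 33 subunits were called (against 0.0% of all genes) and 4 had an unadjusted p under 0.05 (against 9.98%). Grik1 was lower (-0.20, SE 0.09), and Gabrg1 (0.32, SE 0.14), Gabra2 (0.20, SE 0.09) and Glrb (0.13, SE 0.06) were higher. Only Grik1 separated all 4 mice from the 4 WT mice of batch 2 (1 of 33, against 2.65%). The mice of this genotype were unlike each other. In mouse 4, 15 of 33 subunits lay over 0.5 on the log2 scale from the WT mean, 12 of them lower and 3 higher (Gabra5, Gabrg1 and Glra1), against 30.7% of all genes. In mouse 3 there were 4 of 33 (against 14.6%), and in mice 1 and 2 there were 0 (against 11.7% and 13.1%). The lowest value was that of Grin2d in mouse 4, at -1.99. Mitochondrial transcripts took 6.73% of fragments in mouse 4 and 4.82%, 4.11% and 3.84% in the other mice of the group, against 3.35 to 4.38% in WT mice of batch 2, and their part in these values was not tested. Without mouse 4 the count of 4 came to 0 (against 2.67%), without mouse 3 to 2 (against 6.81%), without mouse 1 to 13 and without mouse 2 to 14 (against 19.4% and 20.2%). It was 2 without WT mouse 5 (against 11.4%), 0 without WT mouse 6 (against 5.52%), 2 without WT mouse 8 (against 7.1%) and 8 without S776A double mouse 1 (against 9.97%). With the mice of batch 2 alone it was 1 (against 4.31%), after ComBat-seq 10 (against 18.7%) and without the batch term 16 (against 38.5%).

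**Figure D4:**
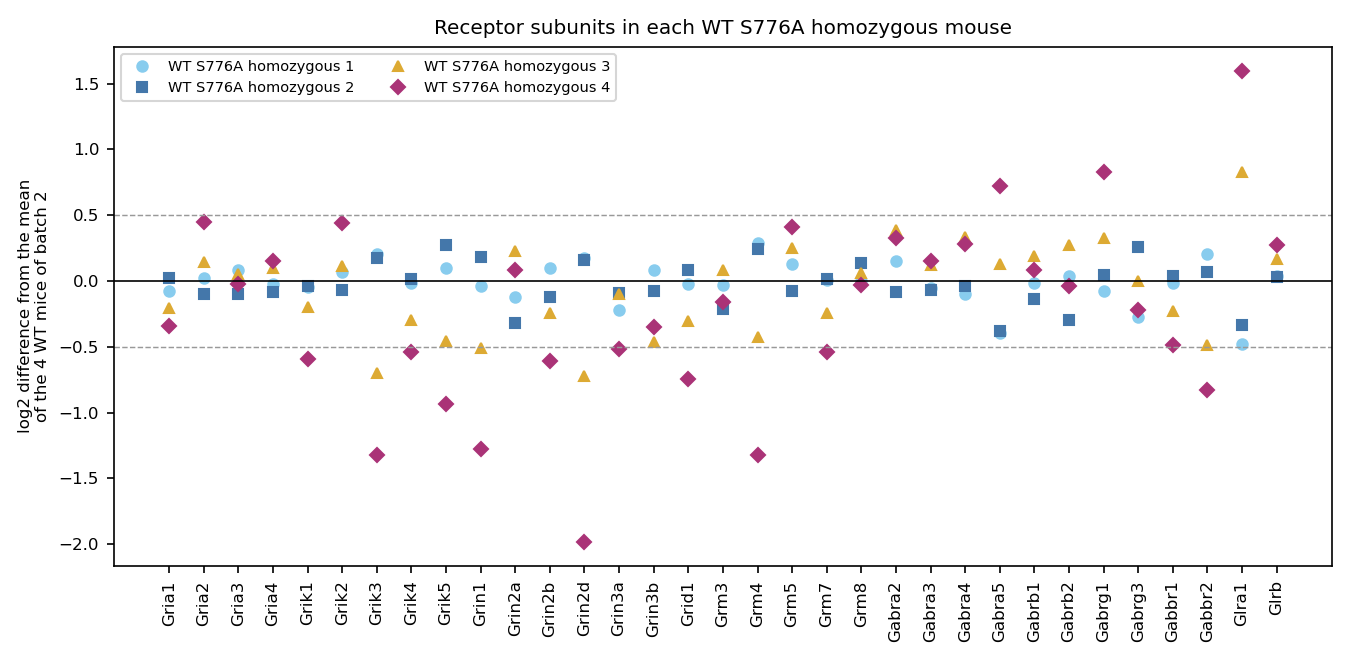
Log2 difference of each of the 33 receptor subunits in each of the 4 WT S776A homozygous mice from the mean of the 4 WT mice of batch 2. Mice 1 and 2 stay within 0.5 of the WT mean for every subunit, whereas 15 subunits of mouse 4 lie beyond 0.5, with Grin2d lowest at -1.99.

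The base composition of the transcripts ran along with these differences. The GC content of the longest annotated transcript was known for 33 of 33 subunits, with a median of 47.1% and a range from 35.3% in Gabrg1 to 65.0% in Grin2d, against a median of 49.0% over all genes. Across the 33 subunits, which share the same libraries and are not independent, Spearman's rho between the log2 difference and GC content was -0.54 for SCA1, -0.63 for SCA1 S776A, -0.79 for S776A double and -0.77 for WT S776A homozygous mice, and over all genes it was -0.16, -0.19, -0.29 and -0.29. Within the last genotype rho was 0.16 and 0.36 in mice 1 and 2 and -0.76 in both mice 3 and 4. The SCA1 differences and those of WT S776A homozygous mouse 4, which come from different mice of different batches, had a rho of 0.73 over the 33 subunits and 0.26 over all genes. When the trend over GC content was taken out of every library, an analysis chosen after seeing the data, 0 subunits were called in any of the 8 comparisons. In SCA1 mice 8 subunits were then lower and 2 higher at an unadjusted p under 0.05 (against 9.16% of all genes), with Grm4 at -0.66, Gria3 at -0.32, Gabbr1 at -0.22, Gabbr2 at -0.34 and Grik2 at 0.19 on the log2 scale.

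Beside the 33 members, 82 other genes of these synapses were read from lists of other receptor subunits, auxiliary proteins, scaffolds, inhibitory synapse proteins, synapse organisers, and enzymes and transporters. Of these, 79 passed the filter, and in SCA1 mice 11 were lower and 5 higher at an unadjusted p under 0.05 (against 4.32% and 3.93% of all genes). The called ones were 2. Glra2, a glycine receptor alpha subunit, rose from 2.99 to 3.89 CPM in WT mice to 4.96 to 6.30 CPM in SCA1 mice (log2 fold change 0.71, SE 0.15, adjusted p = 0.0314). Homer3, a scaffold of Purkinje cell dendrites that ties metabotropic receptors to calcium stores, fell from 195 to 233 CPM to 151 to 158 CPM (log2 fold change -0.45, SE 0.10, adjusted p = 0.0335). The SCA1 and WT mice of batch 1 did not overlap for either gene, although Glra2 was at 4.87 to 6.06 CPM in the WT mice of batch 2, the range of the SCA1 mice. By list, the count of lower and higher genes was 2 and 1 of 15 other receptor subunits, 3 and 0 of 14 auxiliary proteins, 2 and 0 of 13 scaffolds, 2 and 1 of 11 inhibitory synapse proteins, 1 and 2 of 7 organisers, and 1 and 1 of 19 enzymes and transporters. The gene of lowest p among the auxiliary proteins was Cnih2, an AMPA receptor partner (-0.26, adjusted p = 0.102), and among the enzymes and transporters Gad1, which makes GABA (-0.20). Among the inhibitory synapse proteins it was Kctd8 (0.30, adjusted p = 0.145) and among the organisers C1ql1 (0.39, adjusted p = 0.459). Both were higher in SCA1 mice, with overlap between mice. In S776A double mice Kctd8 was higher without overlap (0.32, adjusted p = 0.317). Glra2 was also higher (0.36, adjusted p = 0.698) and Homer3 lower (-0.22, adjusted p = 0.702) there without overlap. In SCA1 S776A mice Glra2 (0.31) and Homer3 (-0.16) overlapped WT. In the genotypes other than SCA1 none of the 79 was called. At an unadjusted p under 0.05 the lower and higher genes of the 79 were 5 and 0 for SCA1 S776A mice (against 1.95% and 1.98% of all genes). They were 4 and 2 for S776A double (against 3.4% and 3.54%) and 3 and 4 for WT S776A homozygous mice (against 3.41% and 6.57%).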

How the data were processed

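RNA from cerebella of 24 mice was extracted with a Qiagen miRNeasy kit and sequenced by Genewiz. After trimming (Trimmomatic 0.36) and alignment to GRCm38.p6 (STAR 2.7.2d), the authors deposited raw, unstranded fragment counts per gene for each library. The batch correction and DESeq2 1.28.1 analysis of the study came after these files. The annotation is not given in the sources used here. Of 54232 gene identifiers 54165 matched GENCODE M21, and 1 further feature of the files is not reported here.

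Groups follow the labels, and each library is a separate mouse. The study names 2 batches without listing them in its text, so the batch was inferred by k-means (2 centres, 50 starts) on 4 shares of each library: unmapped, multimapping, outside genes and ambiguous (mean silhouette 0.634). Counts were scaled by TMM (factors 0.944 to 1.06) and tested with edgeR 4.0.16 in R 4.3.3 (robust quasi-likelihood test, genotype and batch as terms, filterByExpr by genotype, 22502 genes, Benjamini-Hochberg adjustment over all of them, two-sided). Standard errors and 95% intervals come from this fit. The median coefficient of variation between mice was 12.5%, and the chi-square per degree of freedom between 2 mice of a genotype was 8.67 or more, above counting error in every pair. CPM uses the TMM scaling, and RPKM divides it by the length of all exons. The median depth was 74852158 fragments on genes. The code was tested on simulated data.

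Alternatives were no batch term, DESeq2 1.42.0 with the batch, ComBat-seq (sva 3.50.0) then DESeq2, no filter, a filter of 1 CPM in 4 libraries, DESeq2 size factors, mice of 1 batch, other call rules, each mouse left out, and, added after seeing the data, offsets that remove the trend over GC content. Values in every mouse are given for the 10 subunits of lowest p in SCA1 mice and the subunit of highest RPKM in each class, 16 in all. The members and gene lists were chosen with earlier results of these data known.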

Additional observations from a re-analysis of the deposited data

Results flagged for a closer look

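For the 16 subunits given mouse by mouse, 96 groups of 4 mice were searched for a mouse whose gap to its nearest neighbour, as a share of the range of the group, exceeded the critical value of Dixon's test at the 95% level. This held in 8 groups, and chance gives about 4.8 of 96. The widest was Grm4 in WT mouse 5 (0.994), at 503 CPM against 652 to 653 CPM in the other WT mice of batch 2. That mouse lowers the WT level against which WT S776A homozygous mice are set. SCA1 mouse 4 was lowest in Gabbr1 (0.885, 662 CPM against 715 to 722), Gria1 (0.831, 484 CPM against 576 to 596) and Gabrb2 (0.884, 107 CPM against 177 to 189). S776A double mouse 1 was highest in Gabra5 (0.834, 0.974 CPM against 0.589 to 0.641), Grik4 (0.836, 18.6 CPM against 14.4 to 15.0) and Grid1 (0.865, 28.6 CPM against 23.8 to 24.4). WT mouse 1 was highest in Grid1 (0.926, 32.5 CPM against 27.1 to 27.5). WT mouse 1 and SCA1 mouse 4 are also the mice without which the count of subunits at an unadjusted p under 0.05 in SCA1 mice came to 5 and 7 instead of 11.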

How the results depend on the processing

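No subunit was called in any comparison, and the count stayed at 0 without a filter, with the stricter filter, with DESeq2 size factors, with the GC offsets, and under the adjusted p of 0.01 with a log2 fold change over 0.5. Other settings called some. The number of genes called over all genes also changes with the setting and is given above only for SCA1 mice with batch 1 alone. The counts below therefore do not set the subunits apart from other genes. In SCA1 mice there was 1 without the batch term (Grik2), 1 with DESeq2 (Gria3), 5 after ComBat-seq, 3 with mice of 1 batch and 0 to 2 with each mouse left out. For the mean of the 3 genotypes with the expanded allele there were 6 without the batch term, 5 after ComBat-seq, 4 with mice of 1 batch and 0 to 1 with each mouse left out. In S776A double mice there was 1 after ComBat-seq (Grik2), and in WT S776A homozygous mice 9 without the batch term. Without that term these mice of batch 2 are set against WT mice of both batches, so batch differences enter the comparison. The causes of the other changes were not tested.

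With an unadjusted p under 0.05 as the call, the members counted 11 in SCA1 mice, 4 in S776A double, 4 in WT S776A homozygous, 8 for the mean of the 3 genotypes, 3 in SCA1 S776A against SCA1 and 2 in S776A double against SCA1. The other synapse genes, 79 tested, counted 16, 6, 7, 12, 8 and 5 in the same order, with 5 for SCA1 S776A mice and 2 for S776A double against SCA1 S776A. The shares over all genes were 8.25, 6.93, 9.98, 7.67, 4.35 and 3.64% in that order. They were 3.93% for SCA1 S776A mice and 2.96% for S776A double against SCA1 S776A. For the 10 subunits of lowest p, in SCA1 mice and for that mean, the removal of the batch term turned 3 directions, of Grin3b in SCA1 mice (0.087) and, for the mean, of Gria3 (0.032) and Grin3b (0.21), while 610 other fold changes over these settings kept their direction and side of the threshold and 27 passed it. In the other comparisons directions turned too, such as Grm4 in WT S776A homozygous mice (-0.39 to 0.06 with each mouse left out). No paired analysis was possible because the replicate numbers used here only follow accession order, and the labels tie no mice of different genotypes together. Gabra5 and Glra1 rest on the fewest fragments, and both also spread widely between mice.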
